A study of Mus musculus with 28 samples.

Results

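Organoids given BMP2 were compared directly with organoids given BMP4, using 7 of the 28 samples of the series: 4 with BMP2 (numbered II, III, IV and VI in the titles) and 3 with BMP4 (II, III and VI). The samples were taken by their treatment label alone. All were small-intestinal organoids, epithelial cultures grown from crypts, from wild-type C57BL/6 mice. Each had received a recombinant ligand at 500 ng/ml for 24 h in a medium to which no other BMP or Tgfb ligand had been added. The 4 untreated organoid samples of the same table (II, III, IV and VI) serve as the background, and BMP5 (3 samples) and BMP7 (3 samples) give a second pair of related ligands. The study's title concerns the part of Tgfb superfamily members in the last steps of enterocyte maturation at the villus tip. The labels do not say whether the samples of a group came from separate animals or cultures, so p-values measure the spread between these samples, which may be technical. The libraries were sequenced in more than 1 run, and the labels assign no sample to a run, so run and ligand cannot be told apart.

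BMP2 and BMP4 are closely related secreted dimers of the Tgfb superfamily. BMP ligands join type I and type II serine/threonine kinase receptors, which phosphorylate Smad1, Smad5 and Smad9. These enter the nucleus with Smad4 and switch on targets such as the Id genes and the inhibitory Smads. Tgfb and activin ligands use other type I receptors and Smad2 and Smad3. In the intestine BMP activity is low in the crypt, where stem cells divide, and rises along the villus, where enterocytes mature and are shed.

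Values are normalized counts, that is, reads per gene divided by a size factor for the sample. Depth was even, at 21358620 to 23616739 recovered reads in the 7 samples, and 1 read was worth 1.14 to 1.28 normalized counts there and 0.826 to 0.888 in the untreated samples. Across the 14746 genes tested, the rank correlation between samples was 0.983 to 0.989 within BMP2 and 0.987 to 0.993 within BMP4, and 0.863 to 0.898 between a BMP2 and a BMP4 sample. Against untreated samples it was 0.823 to 0.846 for BMP2 and 0.896 to 0.924 for BMP4. These correlations are across genes, which are not replicates, and carry no test. In bulk RNA, fewer cells of a type and less RNA per cell cannot be told apart, which holds for every result below.

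The 2 ligands gave widely different transcriptomes. By limma with Benjamini-Hochberg adjustment, 9847 of 14746 genes differed between BMP2 and BMP4 (66.8%), 4924 of them higher with BMP2 (33.4%) and 4923 lower (33.4%). At least 4-fold differences, on the log2(value + 1) scale, were found for 977 genes higher with BMP2 (6.63%) and 1172 lower (7.95%). The values of the 4 BMP2 and 3 BMP4 samples did not overlap for 8938 genes (60.6%). The median log2 difference of all genes tested was 0.01. Between BMP5 and BMP7, the same fit called 2 genes (0.0136%), against 9262 for BMP2 and BMP7 (62.8%) and 8818 for BMP4 and BMP7 (59.8%). The group sizes differ, since BMP2 has 4 samples and the other ligands 3, and these comparisons share samples.

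Genes were then read in 50 lists of cell programmes and pathways, and each list's count is to be set against those shares of all genes. The programmes higher with BMP2 were extracellular matrix and Tgfb feedback genes, matrix proteases, regenerative epithelium markers, keratins, YAP targets, the actin cytoskeleton and early response genes. Those lower with BMP2 were brush border enzymes, nutrient and ion transporters, xenobiotic and lipid metabolism, and mitosis. The median over list members in each sample did not overlap between BMP2 and BMP4 for 38 lists and overlapped for 12. The overlapping ones included the villus tip, crypt and Wnt, Paneth, tuft and enteroendocrine hormone lists.

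**Figure D1:**
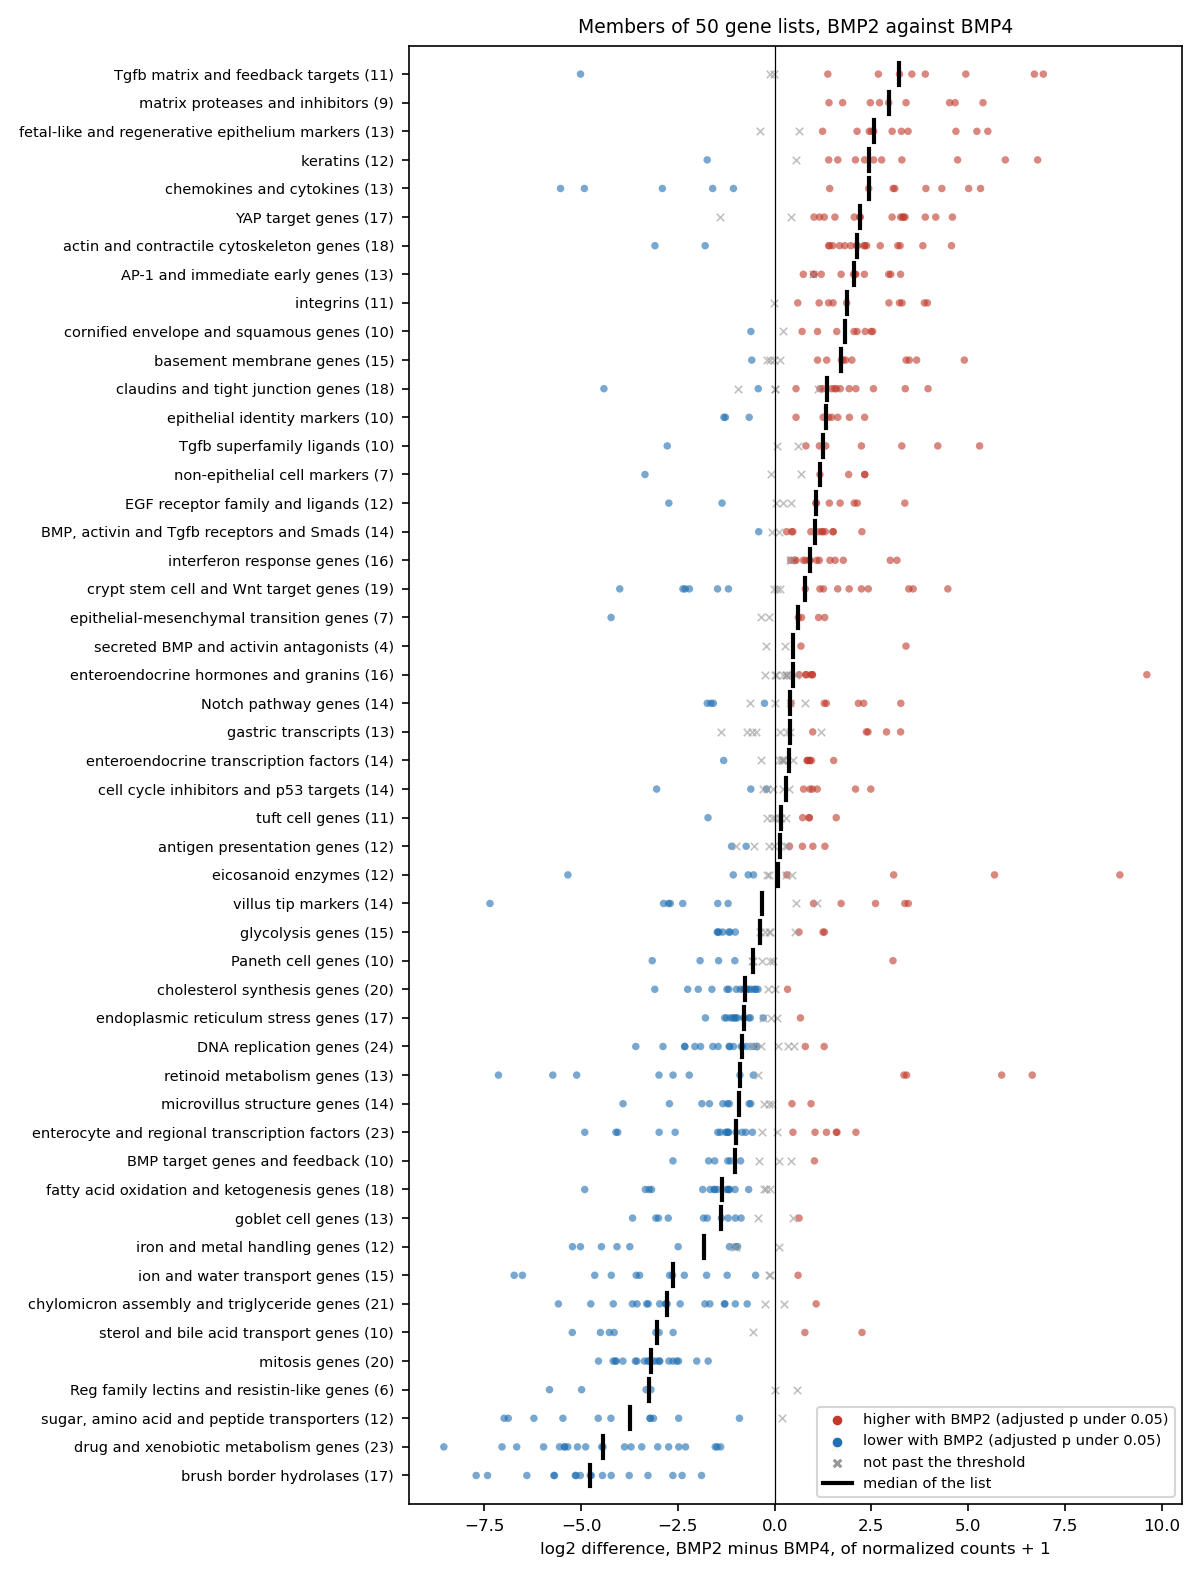
Log2 difference, BMP2 minus BMP4, for each tested member of 50 gene lists, with the number tested in brackets and the list median as a black bar. Circles passed the limma threshold (red, higher with BMP2; blue, lower) and grey crosses did not. The medians run from -4.76 for brush border hydrolases to 3.22 for Tgfb matrix and feedback targets.

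The immediate targets of BMP signalling were high with both ligands and split between them by gene. Id1 (ENSMUSG00000042745), an inhibitor of basic helix-loop-helix factors, stood at 2800, 2770, 2700 and 2970 normalized counts with BMP2 and at 2560, 1960 and 3510 with BMP4, against 112 to 171 in the untreated samples. The groups overlapped, and the log2 difference between the ligands was 0.11 ± 0.19 (SE; limma adjusted p = 0.637). Id3 also overlapped, with 1680 to 2070 with BMP2 and 1940 to 3030 with BMP4 (log2 difference -0.41 ± 0.42, limma adjusted p = 0.408). Id2 stood at 1640, 1840, 820 and 715 with BMP2 and at 2420, 2200 and 1800 with BMP4. Its log2 difference of -0.88 ± 0.34 passed the threshold (limma adjusted p = 0.0277), although BMP2 replicate III lay above BMP4 replicate VI, and its direction was the same but it missed the threshold without BMP2 replicate IV or VI or BMP4 replicate II or III (limma adjusted p = 0.0679 to 0.0965) and by edgeR (adjusted p = 0.0612).

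The inhibitory Smads, feedback inhibitors of the same pathway, went opposite ways. Smad7 (ENSMUSG00000025880), which blocks type I receptors of both the BMP and Tgfb branches, stood at 3350, 3100, 3260 and 3300 with BMP2 and at 1800, 1150 and 1960 with BMP4. Smad6 (ENSMUSG00000036867), which acts mainly on the BMP branch, stood at 245, 358, 292 and 295 with BMP2 and at 865, 773 and 1340 with BMP4. Neither gene's groups overlapped, and both were above every untreated sample with both ligands. The log2 differences were 1.03 ± 0.26 for Smad7 (limma adjusted p = 0.00167) and -1.71 ± 0.43 for Smad6 (limma adjusted p = 0.0017). Msx1 (ENSMUSG00000048450), a homeobox gene induced by BMPs, had the largest gap of the list. It stood at 54.5, 74.2, 82.3 and 78.5 with BMP2, at 546, 337 and 485 with BMP4 and at 3.3 to 6.22 in untreated samples (log2 difference -2.63 ± 0.39). Of the 10 BMP targets tested, 6 were lower and 1 higher with BMP2, and the list median was -1.01. With a minimum mean of 50 over the samples, 3 were lower and the median was -0.41. Smad9, Id4 and Atoh8 were the other members lower with BMP2, at -1.55, -1.21 and -1.14; the groups overlapped for Atoh8.

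**Figure D2:**
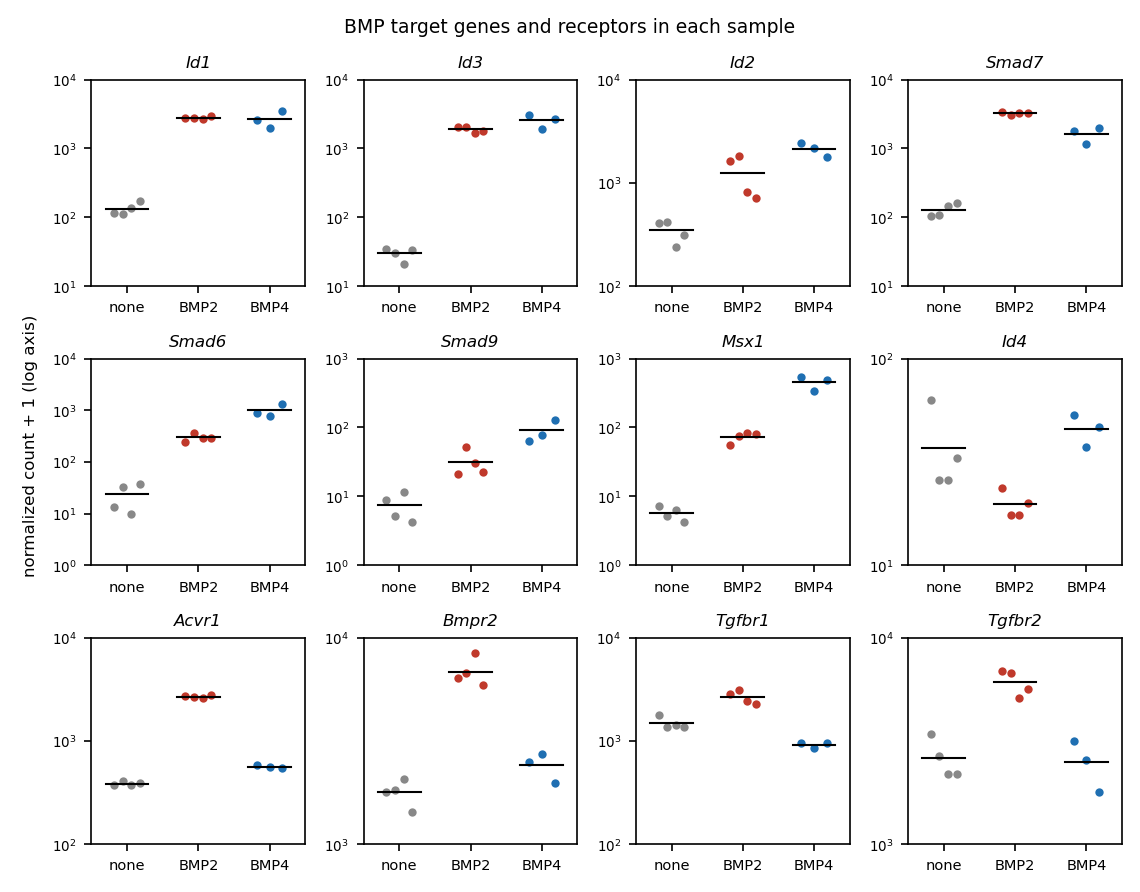
Normalized count + 1 on a log axis for 8 BMP target genes and 4 receptors in each untreated (grey), BMP2 (red) and BMP4 (blue) sample, with the group mean as a bar. Id1 and Id3 lie at like levels with both ligands, Smad6 and Msx1 are higher with BMP4, and Smad7 and the 4 receptors are higher with BMP2.

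Receptors and signal carriers were mostly more abundant with BMP2. Of 14 tested, 11 were higher and 1 was lower, with a list median of 1.04. The type I receptor gene Acvr1, which encodes ALK2, stood at 2730, 2630, 2610 and 2760 with BMP2 and at 582, 554 and 550 with BMP4, against 372 to 411 untreated (log2 difference 2.25 ± 0.12). The Tgfb type I receptor gene Tgfbr1 stood at 2830, 3080, 2410 and 2260 with BMP2 and at 955, 852 and 949 with BMP4, where it was below the untreated range of 1360 to 1780. Bmpr2, Tgfbr2 and Smad3 were higher by 1.5, 1.31 and 1.24 log2 units. The BMP type I receptor gene Bmpr1a was at -0.08 and did not pass the threshold. Acvr2a, a type II receptor for activins and BMPs, was the member lower with BMP2, at -0.41.

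Organoids given BMP2 also held more transcripts of several ligands and of an antagonist. Of 10 superfamily ligands tested, 7 were higher and 1 lower, with a median of 1.24; with a minimum mean of 50, 3 were higher. Bmp4 itself stood at 51.1, 72.9, 52.9 and 31.6 with BMP2 and at 0, 0 and 1.2 with BMP4, where every sample was at or under 3 reads. Against that floor it was at least 14.8-fold higher with BMP2. Bmp2 transcripts did not differ past the threshold (log2 difference 0.59 ± 0.28, limma adjusted p = 0.07). Bmp7 was lower with BMP2 by the fit, at 1.14 to 15.3 against 35.6 to 40.7, and both were under the untreated 422 to 592. Fst, which encodes the activin-binding protein follistatin, stood at 204, 193, 225 and 254 with BMP2, at 24.9, 21.7 and 14.4 with BMP4 and at 9.76 to 12.4 untreated (log2 difference 3.39 ± 0.35).

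Genes known as Tgfb matrix and feedback targets had the highest median of the 50 lists. Of 11 tested, 8 were higher with BMP2 and 7 of them at least 4-fold, and the median was 3.22. Against untreated samples the list's median change was 3.47 with BMP2 and 0.75 with BMP4. Thbs1 (ENSMUSG00000040152), thrombospondin 1, a matrix protein that can activate latent Tgfb, stood at 14400, 14400, 17900 and 14000 with BMP2. With BMP4 it was at 258, 127 and 89.8, all below the untreated samples at 294 to 1620. Fibronectin, Fn1 (ENSMUSG00000026193), stood at 2870, 2710, 5710 and 1280 with BMP2 and at 21.3, 24 and 19.1 with BMP4, the latter within 17.4 to 40.8 untreated. Their log2 differences were 6.71 ± 0.49 and 6.94 ± 0.43. The feedback genes Pmepa1 and Ldlrad4 and the integrin subunit Itgb6, which takes part in Tgfb activation, were higher by 3.54, 4.94 and 3.22. The exception was Tgfbi, a secreted matrix protein named for its induction by Tgfb, which stood at 9.08, 5.11, 8.23 and 8.86 with BMP2 and at 344, 240 and 262 with BMP4 (log2 difference -5.01 ± 0.27). Col4a1 and Col4a2 did not differ past the threshold, at -0.12 and -0.03.

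**Figure D3:**
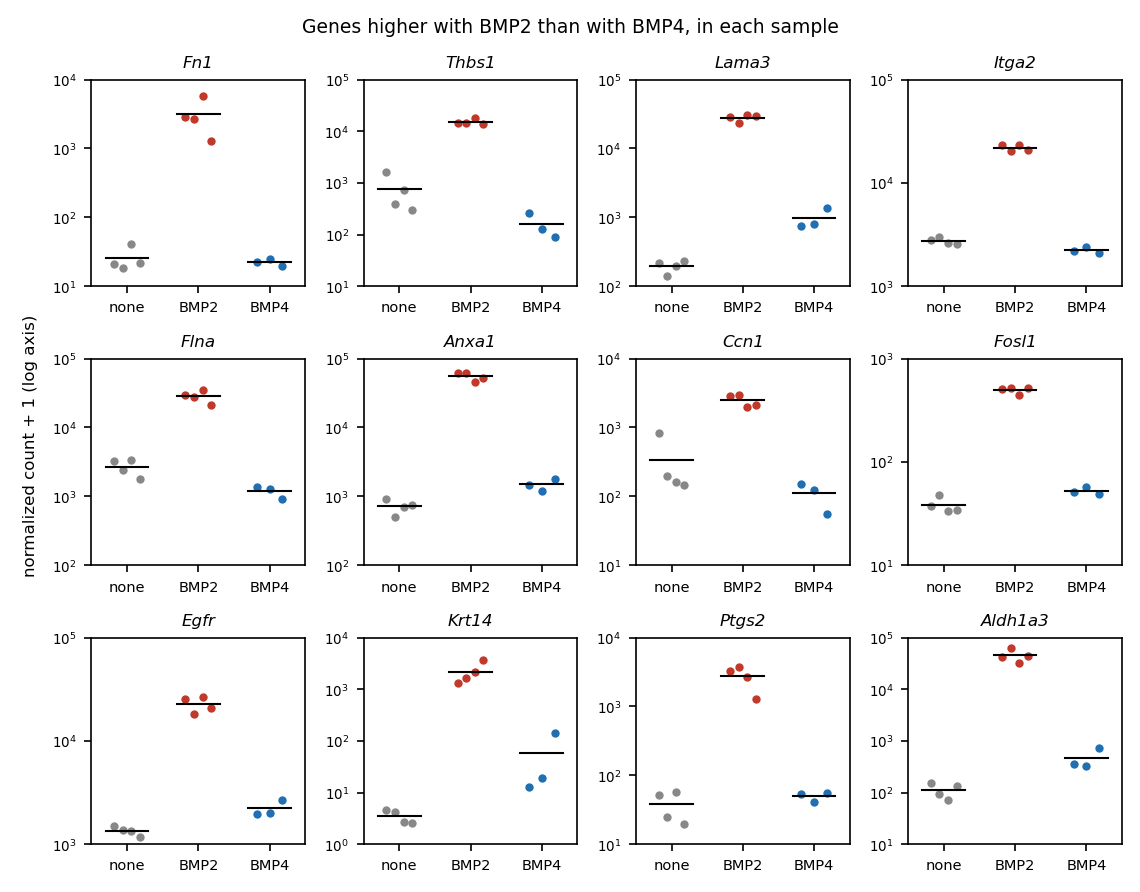
Normalized count + 1 on a log axis for 12 genes higher with BMP2, in each untreated, BMP2 and BMP4 sample, with the group mean as a bar. In each panel the BMP2 samples lie above all BMP4 samples; for Thbs1, Itga2 and Flna the BMP4 samples also lie below the untreated ones.

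The digestive and absorptive programme of the enterocyte was lower with BMP2 in most genes. All 17 brush border hydrolases tested were lower with BMP2, 16 of them at least 4-fold, with a median of -4.76. Against untreated samples the list's median was -2.72 with BMP2 and 1.80 with BMP4, so that the 2 ligands lay on opposite sides of the background. The member with the smallest difference was Xpnpep2, an aminopeptidase, at -1.89. Of 12 sugar, amino acid and peptide transporters, 11 were lower and 10 at least 4-fold, with a median of -3.72. The fructose transporter gene Slc2a5 (ENSMUSG00000028976) stood at 35.2, 42.2, 24.7 and 63.3 with BMP2, at 6700, 6290 and 3130 with BMP4 and at 964 to 1790 untreated. All 4 BMP2 samples were below and all 3 BMP4 samples above the untreated range, and the log2 difference was -6.99 ± 0.33. The glucose transporter gene Slc2a2 showed the same order (-6.88 ± 0.47); without BMP2 replicate VI, which stood at 159 against 35.8 to 50 in the other BMP2 samples, the fold of its means went from 102 to 171.9. Slc36a1, a proton-coupled amino acid transporter, did not pass the threshold, at 0.20.

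Of 15 ion and water transport genes, 12 were lower, 9 of them at least 4-fold. Slc26a3, the chloride and bicarbonate exchanger, stood at 23.8, 24.3, 20 and 74.7 with BMP2 and at 3690, 3030 and 3360 with BMP4 (log2 difference -6.73 ± 0.36). The fold of its means was 94.1, and 148 without BMP2 replicate VI. The sodium and proton exchangers split: Slc9a3, the apical exchanger of absorptive cells, was at -6.52 (76.0-fold lower, 136.7-fold without BMP2 replicate VI), while Slc9a2 was higher with BMP2 at 0.60. The chloride channel gene Cftr did not pass the threshold, at -0.16. Of the scaffold of the microvillus, 9 of 14 genes were lower, 2 of them at least 4-fold, and a median of -0.91. Against untreated samples this list's median was 0.88 with BMP2 and 1.65 with BMP4. Baiap2l2 was lower with BMP2 (-3.92), as was the actin nucleator Cobl (-2.72), while ezrin (Ezr) was higher at 0.45 and villin (Vil1) lower at -0.66.

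**Figure D4:**
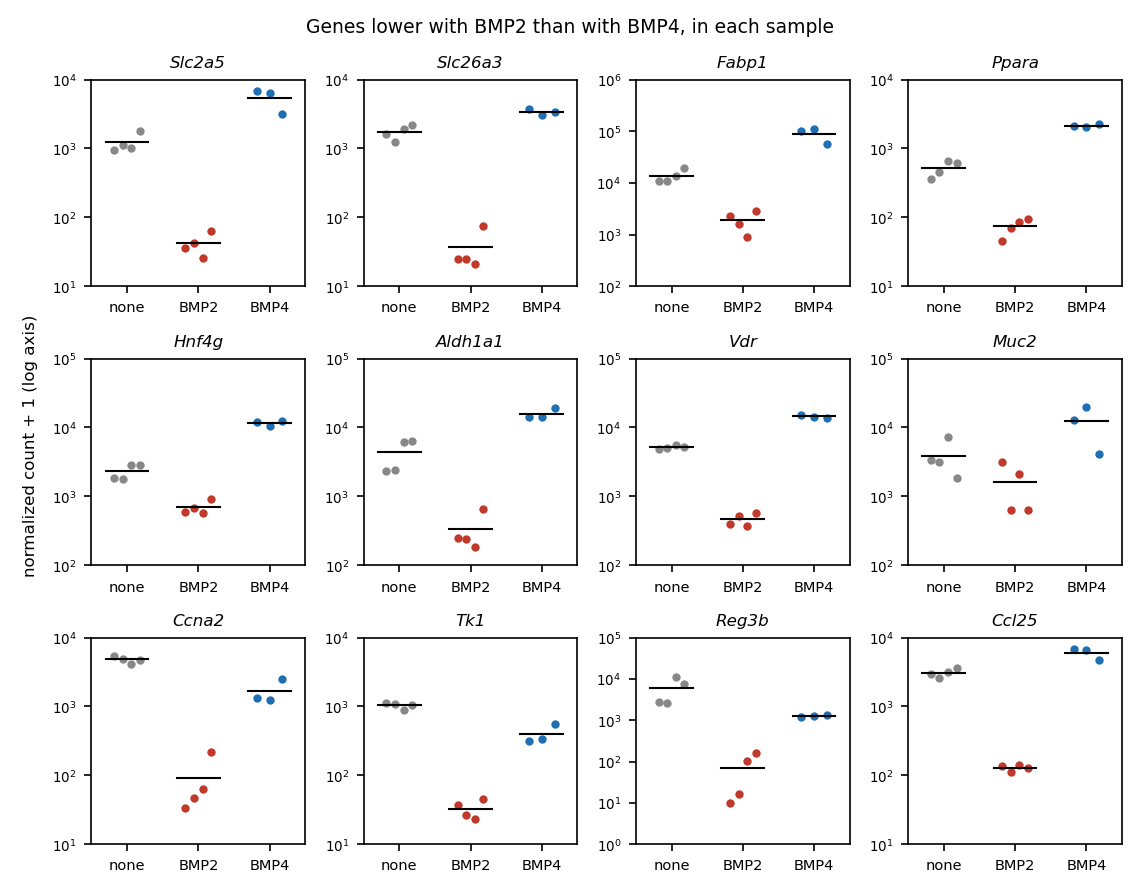
Normalized count + 1 on a log axis for 12 genes lower with BMP2, in each untreated, BMP2 and BMP4 sample, with the group mean as a bar. For Slc2a5, Slc26a3, Fabp1, Ppara, Hnf4g, Aldh1a1, Vdr and Ccl25, the BMP2 samples lie below and the BMP4 samples above every untreated sample.

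Lipid handling was lower with BMP2 at most steps, with named exceptions. Of 21 chylomicron assembly and triglyceride genes, 18 were lower, 12 at least 4-fold, with a median of -2.78. Fabp1 (ENSMUSG00000054422), a cytosolic fatty acid carrier, stood at 2320, 1640, 912 and 2900 with BMP2 and at 101000, 109000 and 57000 with BMP4, against 10800 to 19600 untreated. Its groups did not overlap (log2 difference -5.59 ± 0.33). The scavenger receptor gene Cd36 was at -4.75. Apob, the structural protein of chylomicrons, and Dgat2, which makes triglyceride, did not pass the threshold, at -0.25 and 0.23, and Plin2, a lipid droplet coat protein, was higher with BMP2 (1.07 ± 0.15). Relative to untreated samples, the median of the list was 0.09 with BMP2 and 2.46 with BMP4.

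Of 18 fatty acid oxidation and ketogenesis genes, 15 were lower with BMP2 and 4 at least 4-fold. Against untreated samples the median of this list was 0.33 with BMP2 and 1.59 with BMP4, so not every member followed Ppara below untreated with BMP2. Ppara (ENSMUSG00000022383), the nuclear receptor that drives this pathway, stood at 44.3, 70.3, 85.9 and 92.4 with BMP2 and at 2090, 2050 and 2300 with BMP4, with 365 to 654 untreated (log2 difference -4.91 ± 0.25). Of 20 cholesterol synthesis genes, 17 were lower, 2 of them at least 4-fold, with a median of -0.76. Those 2 were Dhcr7, the last enzyme of the pathway (-3.10), and Insig1, which holds back SREBP processing (-2.25). The median of the cholesterol list against untreated samples was 0.01 with BMP2 and 0.76 with BMP4, whereas Dhcr7 was at -3.07 and 0.03. Among 10 sterol and bile acid transport genes, 7 were lower, all at least 4-fold. The sterol exporter gene Abcg8 was at -4.50 and the basolateral bile acid exporter gene Slc51a at -5.23. Abca1, the cholesterol efflux pump, went the other way, at 1210, 855, 869 and 787 with BMP2 and 197, 206 and 172 with BMP4 (log2 difference 2.26 ± 0.23).

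Detoxification genes were lower with BMP2 in 22 of 23 cases, 19 at least 4-fold, with a median of -4.43. Their medians against untreated samples were -1.82 with BMP2 and 1.78 with BMP4. Many of these belong to families of near-identical copies (Cyp2c, Ugt, Gstm, Ces1), for which reads may be split between copies, so single members are uncertain. Metal handling genes were lower in 9 of 12 cases. Slc11a2, the apical iron importer DMT1, stood at 904, 691, 573 and 652 with BMP2 and 28500, 43400 and 14200 with BMP4 (log2 difference -5.22 ± 0.35).

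Retinoid metabolism was divided by enzyme. Aldh1a3 (ENSMUSG00000015134), which makes retinoic acid, stood at 42300, 63500, 32700 and 43800 with BMP2, at 365, 323 and 718 with BMP4 and at 71 to 154 untreated. Aldh1a1, a related enzyme for the same reaction, stood at 251, 243, 184 and 654 with BMP2, at 14100, 14100 and 19100 with BMP4 and at 2340 to 6430 untreated. The groups did not overlap for either, and the log2 differences were 6.65 ± 0.37 and -5.73 ± 0.53. The retinol dehydrogenases were divided as well, with Rdh10 at 3.41 and Rdh7 at -7.13. The retinol uptake receptor gene Stra6 was at 56.5 to 104 with BMP2 and at or under 3 reads in every BMP4 sample, so it was at least 21.6-fold higher. In all, 8 of 13 retinoid genes were lower and 4 higher with BMP2. Vdr (ENSMUSG00000022479), the vitamin D receptor, had one of the 5 smallest p-values of the whole comparison. It stood at 401, 528, 373 and 568 with BMP2, at 15200, 14200 and 13900 with BMP4 and at 4940 to 5520 untreated (log2 difference -4.97 ± 0.16, limma adjusted p = 7.11e-14).

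Transcription factors of the enterocyte changed unequally. Of 23 enterocyte and regional factors tested, 15 were lower with BMP2 and 6 higher, with a median of -1.0. Hnf4g (ENSMUSG00000017688), a nuclear receptor of absorptive cells, stood at 597, 687, 574 and 915 with BMP2, at 12200, 10600 and 12400 with BMP4 and at 1810 to 2890 untreated (log2 difference -4.10 ± 0.22). Its relative Hnf4a was at -0.84, and the intestinal identity gene Cdx2 at -1.27. The epithelial factor Ehf and the cut-homeobox gene Onecut2 were higher with BMP2, by 1.61 and 1.59. Maf, a factor of differentiated enterocytes, stood at 366, 606, 321 and 437 with BMP2 and at 7240, 6040 and 7820 with BMP4 (log2 difference -4.05 ± 0.19).

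Villus tip markers were mostly above untreated with both ligands, and between the ligands they went both ways. Their median against untreated samples was 3.48 with BMP2 and 3.34 with BMP4. Of 14 tested, 5 were higher (35.7%) and 7 lower (50.0%) with BMP2, against 33.4% of all genes each way. The list median was -0.32, which turned to 0.56 with a minimum mean of 50. Slc28a1, a nucleoside transporter gene, had the largest gap: it lay at 0, 0, 3.53 and 3.8 with BMP2, below the untreated 9.13 to 45.2, and at 341, 338 and 379 with BMP4, above them. Every BMP2 sample was at or under 3 reads, so it was at least 96.8-fold lower with BMP2. Egfr, the EGF receptor, stood at 25700, 18100, 26800 and 21000 with BMP2 and at 1960, 2000 and 2710 with BMP4 (log2 difference 3.36 ± 0.17). Nt5e, which makes adenosine from AMP, stood at 2050, 2480, 8100 and 4840 with BMP2 and at 306, 240 and 546 with BMP4 (3.45 ± 0.51). Tmigd1, an adhesion protein of mature enterocytes, stood at 28.4, 16.6, 24.7 and 13.9 with BMP2 and at 122, 144 and 205 with BMP4 (-2.87 ± 0.39). The keratin gene Krt20 and the adenosine deaminase gene Ada did not pass the threshold, at 0.56 ± 0.37 and 1.09 ± 0.59.

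**Figure D5:**
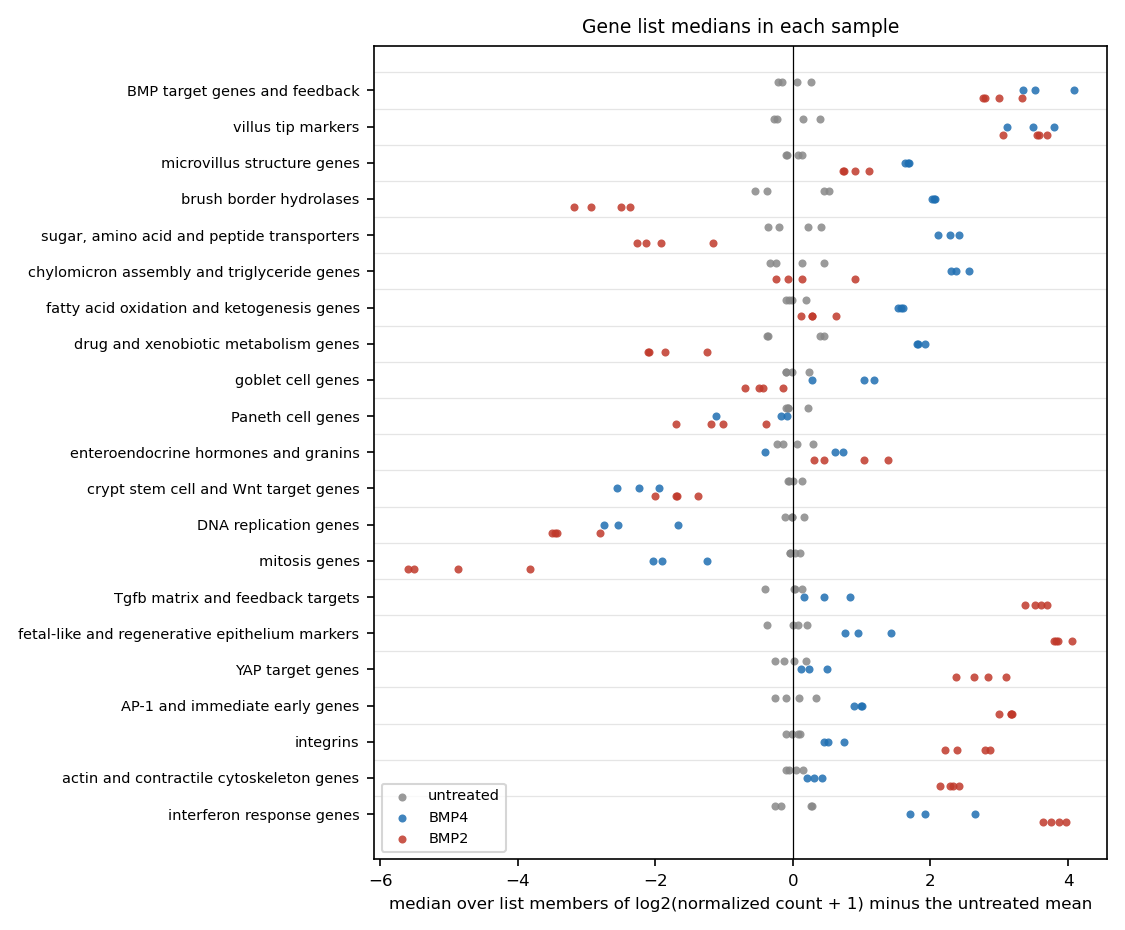
Median over the members of 21 gene lists of log2(normalized count + 1) minus the untreated mean, 1 point per sample (grey, untreated; blue, BMP4; red, BMP2). Brush border, transporter and xenobiotic lists lie below 0 with BMP2 and above 0 with BMP4; BMP target and villus tip lists lie above 0 with both.

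Transcripts of dividing cells were lower with BMP2 than with BMP4. All 20 mitosis genes were lower, 19 at least 4-fold, with a median of -3.19; against untreated samples the median was -5.13 with BMP2 and -1.72 with BMP4. Ccna2 (ENSMUSG00000027715), cyclin A2, stood at 32.9, 46, 63.5 and 220 with BMP2, at 1330, 1260 and 2520 with BMP4 and at 4170 to 5400 untreated (log2 difference -4.55 ± 0.42). BMP2 replicate VI was the highest of its group, and the fold of the means was 18.8 with it and 35.9 without it. The proliferation marker Mki67 stood at 128, 81.8, 325 and 380 with BMP2 and at 2970, 3490 and 3930 with BMP4 (-4.17 ± 0.44). Of 24 DNA replication genes, 16 were lower and 2 higher, with a median of -0.85; without BMP4 replicate VI, 4 were higher and the median was -0.47. Thymidine kinase, Tk1, was at -3.59, whereas the DNA polymerase gene Pole was higher with BMP2 (1.28 ± 0.21) and below the untreated samples with both ligands.

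Cell cycle inhibitors and p53 targets went both ways, with 6 higher (42.9%) and 3 lower (21.4%) of 14, against 33.4% of all genes each way. Phlda3 and Pmaip1, both p53 targets, were higher with BMP2 by 2.48 and 2.09, and Sesn1, another p53 target, was lower at -3.05. The cyclin-dependent kinase inhibitor gene Cdkn1a stood at 11400, 13800, 12100 and 13500 with BMP2, at 8380, 10800 and 10600 with BMP4 and at 1170 to 1900 untreated. The fit did not call it between the ligands (log2 difference 0.36 ± 0.24, limma adjusted p = 0.189).

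Crypt and Wnt target genes did not move as a block between the ligands. Against untreated samples their median was -1.85 with BMP2 and -2.07 with BMP4. Of 19 tested, 10 were higher and 6 lower with BMP2. The median difference between the ligands was 0.79, and 0.39 without BMP4 replicate III. Cd44 had the smallest p-value of the whole comparison (log2 difference 4.47 ± 0.12, limma adjusted p = 4.25e-14). It stood at 31500, 33100, 28400 and 28500 with BMP2, at 1460, 1260 and 1380 with BMP4 and at 3350 to 4000 untreated. Olfm4, a stem cell marker, stood at 88.5, 66.5, 68.2 and 549 with BMP2 and at 1550, 1520 and 3250 with BMP4, against 84000 to 110000 untreated (-4.0 ± 0.53). The fold of its means was 10.9, and 28.3 without BMP2 replicate VI. Lgr5, the receptor that marks crypt base stem cells, was at 3.53 to 17.7 with BMP2 and 13.2 to 34.4 with BMP4, with 3150 to 5210 untreated, and the ligand groups overlapped. Msi1, an RNA-binding protein of progenitors, stood at 208, 425, 359 and 273 with BMP2 and at 26.1, 24 and 23.9 with BMP4, both below 987 to 1230 untreated (3.58 ± 0.18). Ephb3, an ephrin receptor that sorts crypt cells, lay above the untreated 1160 to 1390 with BMP2 (3990 to 4840) and below them with BMP4 (370 to 418; 3.46 ± 0.11). Sox9, a factor of crypt and Paneth cells, was higher by 2.42.

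Secretory lists are set here against the 33.4% of all genes called each way. Goblet cell genes were lower with BMP2 at 76.9% and higher at 7.69%. Paneth cell genes were lower at 40.0% and higher at 10.0%. Tuft cell genes were higher at 36.4% and lower at 9.09%, and hormones and granins were higher at 43.8%, with none lower. Sample medians of the Paneth, tuft and hormone lists overlapped between the ligands. Of 13 goblet cell genes, 10 were lower with BMP2, 4 of them at least 4-fold, and the median was -1.38. The main intestinal mucin gene Muc2 varied within groups, at 3120, 634, 2090 and 632 with BMP2 and at 13000, 19500 and 4160 with BMP4 (log2 difference -3.0 ± 0.69). The mucus lectin gene Zg16 stood at 2160, 1020, 901 and 950 with BMP2 and at 15900, 15500 and 13500 with BMP4, against 266 to 511 untreated (-3.67 ± 0.28). The goblet and secretory factor Atoh1 was at -1.74. Of 10 Paneth cell genes, 4 were lower and 1 higher, and 7 were lower without BMP2 replicate II or without BMP4 replicate VI. Lysozyme, Lyz1, did not pass the threshold, at -0.59. The member higher with BMP2 was Nupr1, a stress-response gene that is not restricted to Paneth cells (3.06 ± 0.28).

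Of 16 enteroendocrine hormones and granins, 7 were higher and none lower, with a median of 0.47; without BMP4 replicate VI, 2 were higher and the median was 0.13. Peptide YY, Pyy, a hormone of L cells, had the largest positive difference of all named genes, at 7540 to 14000 with BMP2 and 7.99 to 28.4 with BMP4 (9.61 ± 0.69). The fold of its means was 738, and 1288 without BMP4 replicate II. No other member differed 4-fold. Neurotensin, Nts, stood at 108, 70.3, 71.8 and 60.7 with BMP2 and at 34.4, 58.2 and 27.5 with BMP4, against 4.44 to 8.3 untreated (0.98 ± 0.30). Its limma adjusted p was 0.00854, and 0.0588 without BMP4 replicate VI. Of 14 enteroendocrine transcription factors, 6 were higher and 1 lower, with a median of 0.36, and with a minimum mean of 50, 3 were higher. St18 and Neurod1 were higher by 1.52 and 0.84, and Mnx1, at low counts, was lower at -1.32. Against untreated samples the list's median was -0.76 with BMP2 and -1.27 with BMP4. Of 11 tuft cell genes, 4 were higher and 1 lower, with Avil, a villin-related actin binder, at 1.59, and the IL-25 receptor gene Il17rb at -1.72.

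Regenerative and fetal-like epithelium markers were higher with BMP2 in 11 of 13 cases, 10 at least 4-fold, with a median of 2.56. Anxa1 (ENSMUSG00000024659), annexin A1, stood at 61100, 61300, 45900 and 53000 with BMP2, at 1470, 1200 and 1800 with BMP4 and at 509 to 930 untreated (log2 difference 5.22 ± 0.29). Basp1, a membrane-attached signalling protein, stood at 1620, 2350, 1320 and 920 with BMP2 and at 41.5, 34.2 and 21.5 with BMP4 (5.51 ± 0.44). YAP target genes were higher in 15 of 17 cases, 11 at least 4-fold, with a median of 2.21. Ccn1, a matrix-associated signalling protein, stood at 2900, 2920, 1980 and 2140 with BMP2 and at 151, 122 and 55 with BMP4, and the tissue factor gene F3 at 30000, 35700, 27700 and 39100 against 1770, 2370 and 1470. Neither gene's groups overlapped (4.59 ± 0.51 and 4.16 ± 0.32).

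Early response and growth factor genes were higher too. Of 13 AP-1 and immediate early genes, 12 were higher with BMP2 and 7 at least 4-fold. Fosl1, an AP-1 subunit, stood at 510, 515, 438 and 523 with BMP2, at 49.8, 55.9 and 47.9 with BMP4 and at 32.8 to 46.5 untreated (3.25 ± 0.30). Jun, its usual partner, was at 3.0 ± 0.23. Among 12 EGF receptor family and ligand genes, 7 were higher and 2 lower; amphiregulin, Areg, was at 2.06, and the 2 lower were Egf (-1.36) and Nrg4 (-2.73), both at low counts.

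Most genes of adhesion to matrix were higher with BMP2. Of 11 integrins tested, 10 were higher, with a median of 1.86. Itga2, a collagen receptor subunit, stood at 23400, 20300, 23200 and 20600 with BMP2 and at 2190, 2390 and 2120 with BMP4, below the untreated 2550 to 3020 (3.29 ± 0.12). Itga5, the fibronectin receptor subunit, was at 3.87. Of 15 basement membrane genes, 10 were higher, 1 was lower and 4 were not called. The list's median over untreated was 2.23 in BMP2 replicate IV against 0.63 to 0.86 in the other BMP2 samples, and 0.97 in BMP4 replicate VI against 0.10 and 0.11 in the other BMP4 samples, so the ligand groups overlapped. Lama3 (ENSMUSG00000024421), a chain of laminin-332, stood at 28900, 23300, 30900 and 29100 with BMP2 and at 747, 802 and 1360 with BMP4, against 139 to 230 untreated (4.90 ± 0.29). The anchoring fibril collagen gene Col7a1 was at 3.67.

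Of 18 actin and contractile genes, 16 were higher and 2 lower. Flna (ENSMUSG00000031328), filamin A, stood at 29600, 28000, 34900 and 21300 with BMP2 and at 1390, 1290 and 918 with BMP4, below the untreated 1760 to 3420 (4.57 ± 0.22). The 2 lower were Mylk, a myosin kinase (-1.80), and Myl9, a myosin light chain at low counts (-3.09). All 9 matrix proteases and inhibitors tested were higher, 7 at least 4-fold. The urokinase gene Plau was at 4.66 ± 0.29. Timp3, a metalloproteinase inhibitor, was at 5.38 ± 0.44, and the fold of its means was 35.6, and 75.7 without BMP4 replicate VI.

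Junction and keratin genes differed by member. Of 18 claudins and tight junction genes, 12 were higher with BMP2 and 2 lower. Cldn4, a barrier-forming claudin, stood at 102000, 90700, 72200 and 83400 with BMP2 and at 5850, 6350 and 4590 with BMP4 (3.96 ± 0.30). Cldn15, a sodium-permeable claudin of the small intestine, stood at 188, 294, 234 and 472 with BMP2 and at 5900, 6280 and 5730 with BMP4 (-4.41 ± 0.22). Of 12 keratins, 10 were higher and 1, Krt4, was lower. Krt14, a keratin of basal stratified epithelium, stood at 1300, 1640, 2160 and 3680 with BMP2, at 11.9, 18.3 and 139 with BMP4 and at 1.65 to 3.55 untreated (5.96 ± 0.66). The fold of its means was 38.9, and 145 without BMP4 replicate VI. Krt16 was at or under 3 reads in every BMP4 sample and at least 73.9-fold higher with BMP2. Trp63 and Krt5, which define basal squamous cells, were below the filter. Of 10 cornified envelope and squamous genes, 8 were higher and 1, envoplakin (Evpl), was lower. Single samples stood apart for the gastric list: its median over untreated was 3.36 in BMP2 replicate IV against -0.50 to 0.35 in the other BMP2 samples, 2.96 in BMP4 replicate VI against -0.52 and -0.28, and 1.22 in untreated replicate IV against -0.93 to -0.31. Of its 13 transcripts, 5 were higher with BMP2 and none lower, with a median of 0.39. That median was -0.43 without BMP4 replicate II, -0.35 without BMP4 replicate III and 1.82 without BMP4 replicate VI. With the replicate block it was -0.33 and 2 transcripts were lower. Without BMP2 replicate II or without BMP4 replicate VI, 1 was lower. The higher members were led by cathepsin E, Ctse (3.25 ± 0.58), and Vsig1 (2.89 ± 0.53); without BMP4 replicate VI the folds of their means went from 8.61 to 13.2 for Ctse and from 6.27 to 13.2 for Vsig1.

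Epithelial markers were abundant with both ligands, with 7 of 10 higher and 3 lower with BMP2. Cdh1, E-cadherin, stood at 101000 to 110000 with BMP2 and at 26700 to 28400 with BMP4, and Epcam was higher with BMP2 by 1.25. Of 14 genes of the epithelial-mesenchymal transition list, 7 were tested, of which 4 were higher with BMP2 and 1 lower, with a median of 0.61, and Snai1, Snai2, Zeb1, Zeb2, Twist1 and Cdh2 were below the filter. The epithelial splicing factor gene Esrp2 and the epithelial factor gene Grhl2 were higher by 1.29 and 1.13. Prrx1, a homeobox gene of mesenchyme, was the member lower with BMP2 (13.6, 8.95, 15.3 and 35.4 against 338, 309 and 312; -4.22 ± 0.45). Since this list mixes epithelial and mesenchymal genes, its positive median gives no direction of the transition. Markers of non-epithelial cells were low in all groups: the 19 of 21 markers with a row in the table summed to 1017 to 1198 with BMP2, 1101 to 1216 with BMP4 and 678 to 897 untreated, most of it Pecam1. The fibroblast genes Col3a1 and Des had means under 1 normalized count in every group. Of the 7 that passed the filter, 4 were higher and 1 lower with BMP2, with a median of 1.17. Without BMP4 replicate III, 2 were higher, and with a minimum mean of 50 none was higher and the median turned to -1.72. The member lower with BMP2 was Itgam, at 14.8, 7.67, 16.5 and 17.7 with BMP2 and at 165, 170 and 114 with BMP4. Its untreated samples lay between, at 36.4 to 46.3 (log2 difference -3.35 ± 0.28). Below the filter, Col1a1 had a mean of 15.9 with BMP2 and lay at 0 to 1.2 with BMP4 and at 0.826 to 19.5 untreated, and Cdh5, an endothelial cadherin, at 22.7 to 40.9 with BMP2 and at 0 in all BMP4 and untreated samples. The part of other cell types in the results was not tested.

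Immune and inflammatory genes were divided. Of 13 chemokines and cytokines, 8 were higher and 5 lower with BMP2, with a median of 2.43; with a minimum mean of 50, 5 were higher and the median was 0.18. Higher were the neutrophil attractants Cxcl1 (232, 320, 206 and 134 against 14.2, 9.13 and 0; 5.32 ± 0.69) and Cxcl2, at least 27.7-fold, and the fold of the Cxcl1 means was 28.7, and 48.9 without BMP4 replicate II. Lower was Ccl25, a small-intestinal chemokine that draws lymphocytes, at 134, 110, 141 and 128 with BMP2 and at 6890, 6480 and 4720 with BMP4 (-5.53 ± 0.20). Of 16 interferon response genes, 14 were higher, 2 at least 4-fold, with a median of 0.91; without BMP4 replicate III, 9 were higher. The list's median lay above untreated with both ligands. The 2 were the guanylate-binding protein genes Gbp2 and Gbp3, at 3.16 and 2.99, and Gbp2 had a fold of means of 8.39, and 12.6 without BMP4 replicate II. Antigen presentation genes were near balance, with 4 higher and 2 lower of 12. Of 6 Reg family and resistin-like genes, 4 were lower with BMP2; reads of the near-identical Reg3 copies may be split. The prostaglandin synthase gene Ptgs2 stood at 3300, 3750, 2710 and 1270 with BMP2 and at 53.3, 39.9 and 55 with BMP4, the latter within 19 to 56.8 untreated (5.68 ± 0.47).

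Notch genes went both ways, with 6 higher (42.9%) and 4 lower (28.6%) of 14, against 33.4% of all genes each way. Lfng, a glycosyltransferase that tunes Notch, stood at 319, 292, 265 and 330 with BMP2 and at 32, 28.5 and 31.1 with BMP4, the latter below 209 to 292 untreated (3.26 ± 0.13). Notch2 was at 2.30, and the Notch target Nrarp at -1.65. Of 17 endoplasmic reticulum stress genes, 13 were lower with BMP2 and 1, the sensor gene Ern1, was higher (0.67). None of them differed 4-fold. Of 15 glycolysis genes, 7 were lower and 3 higher, and the 3 were the glucose transporter gene Slc2a1 and the hexokinases Hk1 and Hk2.

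Among the 12 genes with the largest differences on each side under the naming rule, several lie outside these lists. Higher with BMP2 were the organic anion transporter gene Slco5a1 (7.03 ± 0.40), the fibrillar collagen gene Col27a1 (6.88 ± 0.43), the latent Tgfb-binding protein gene Ltbp4 (6.76 ± 0.35) and the transcription factor gene Sox11. Ltbp4 stood at 480, 716, 989 and 678 with BMP2, at 4.74, 4.56 and 7.18 with BMP4 and at 9.91 to 13.3 untreated. Sox11 was at or under 3 reads in every BMP4 sample and at least 64-fold higher with BMP2. Ifi202b was at 93.1 to 155 with BMP2 and at 0 in every BMP4 and untreated sample. Lower with BMP2 were the arginase gene Arg2 (-7.16 ± 0.44), the inositol transporter gene Slc5a11 (at least 68.6-fold) and Leap2, which encodes an antagonist of the ghrelin receptor. Leap2 stood at 6.81, 6.39, 2.35 and 12.7 with BMP2, at 901, 1930 and 632 with BMP4 and at 64.8 to 206 untreated; the fold of its means was 163, and 108.5 without BMP4 replicate III. Gvin1 had the largest lower difference under the rule, with a wide error (-9.57 ± 1.89). It stood at 0, 0, 23.5 and 0 with BMP2, at 882, 1910 and 2870 with BMP4 and at 685 to 2950 untreated. Apol10a had a fold of 119, and 221 without BMP2 replicate VI. Iqgap2, a scaffold protein, had one of the 5 smallest p-values (-3.65 ± 0.11); it was at 1180 to 1340 with BMP2, under the untreated 1400 to 1940, and at 13700 to 16400 with BMP4.

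Promoter sequences were searched for letters bound by factors of these programmes. RefSeq windows (build GRCm38.p6) from 250 bases before to 50 after a start were matched by symbol for 10554 of 14722 genes tested, and the 8450 genes with a single start were used. The AP-1 letters TGANTCA (either strand, as for all motifs here) were in 9.74% of the 544 windows of genes at least 4-fold higher with BMP2, in 6.96% of the 704 windows of genes at least 4-fold lower, and in 5.11% of all. The TEAD letters CATTCC, the site of YAP's partner, were in 12.1%, 14.5% and 11.9%. The HNF4 letters CAAAGTC were in 2.94%, 6.68% and 3.79%, and the HNF1 letters GTTAAT in 3.86%, 8.1% and 4.65%. The BMP Smad letters GGCGCC were in 21.5%, 15.9% and 21.4%. A match describes the sequence and is neither a bound site nor a cause. The 150 bases upstream of the start are shown for 4 named genes with a match, chosen for it, 5′ to 3′ on the gene's strand with the matched letters in capitals. Olr1, a receptor for oxidized lipoprotein, and F3, both higher with BMP2, carry the AP-1 letters, F3 in 2 copies. Ccn1, also higher, carries the TEAD letters. Slc51a, lower with BMP2, carries the HNF4 letters on the opposite strand. In order, the windows are chr6:129507166-129507315 (minus strand), chr3:121723387-121723536 (plus), chr3:145649986-145650135 (minus) and chr16:32487880-32488029 (minus).
Olr1: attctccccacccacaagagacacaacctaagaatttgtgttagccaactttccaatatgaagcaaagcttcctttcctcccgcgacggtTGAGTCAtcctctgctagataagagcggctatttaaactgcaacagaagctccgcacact
F3: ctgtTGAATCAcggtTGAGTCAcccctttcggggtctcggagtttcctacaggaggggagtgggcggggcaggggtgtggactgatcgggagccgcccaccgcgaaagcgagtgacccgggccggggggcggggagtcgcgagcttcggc
Ccn1: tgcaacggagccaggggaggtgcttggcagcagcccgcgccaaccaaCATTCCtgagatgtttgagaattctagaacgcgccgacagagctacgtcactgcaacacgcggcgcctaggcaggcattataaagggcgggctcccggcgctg
Slc51a: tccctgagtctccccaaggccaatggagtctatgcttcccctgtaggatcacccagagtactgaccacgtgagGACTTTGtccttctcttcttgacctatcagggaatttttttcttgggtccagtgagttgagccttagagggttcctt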

How the data were processed

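Messenger RNA was sequenced from organoids. The authors deposited a table of gene counts divided by size factors, a signal in which low values are whole multiples of what 1 read is worth; this was read from the values, and low values, up to 20 reads, gave whole reads in 100% of cases (tolerance 0.1). The values are rounded, so the recovered reads of abundant genes are approximate. Trim Galore, Salmon, DESeq2 and the build GRCm39 are named per the submitters' processing notes, without versions or roles; the annotation version is not given in the sources used here. Genes averaging 10 or more in the 20 samples were kept (14746 of 29413), and log2(value + 1) was fitted for 6 groups with limma 3.58.1 (R 4.3.3, intensity trend, two-sided), with Benjamini-Hochberg adjustment over all genes and a threshold of 0.05. On the log2(value + 1) scale, changes of low genes are understated. Where no sample of a group exceeds 3 reads, that group is at the floor and a fold against it is a lower bound. Floors reflect counting error alone: amplified reads lacking molecular identifiers are not independent. The design foresaw edgeR for raw counts; edgeR 4.0.16 and DESeq2 1.42.0 were run on recovered reads as alternatives, and other pseudocounts, filters, scalings, samples left out, the groups compared alone and a replicate block were tried. The fit was tested on simulated data. No column of values was left unmapped (0).

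The 50 lists hold 765 distinct genes, 28 of them in more than 1 list; 665 were tested, and 85 list entries were below the filter and 16 had no single row. Members and lists were chosen with earlier results of these data known. Genes were named by rule: the 12 highest and 12 lowest differences past the threshold, without overlap and averaging 50 or more in the 7 samples, up to 2 genes per list and direction under the same conditions, the 5 smallest p-values, and Id1, Id2, Id3, Smad6 and Smad7. This gave 158 genes, 156 of them past the threshold, with limma adjusted p from 4.25e-14 to 0.0277. Other list members in the text were named after their values were seen, and a log2 difference given without a p passed the threshold unless stated. The protein sequences of the ligands were not compared, and the tables of Tgfb-treated organoids and of mesenchymal cells were not used here. Some list members are not reported here.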

Additional observations from a re-analysis of the deposited data

Results flagged for a closer look

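Among 158 named genes, the 4 BMP2 samples held 1 value set far from the others, by Dixon's criterion, for 17 genes (10.8%). For independent, normally spread values the criterion flags about 1 in 20 groups. It was applied here to normalized counts of genes that share the same 4 samples, so 10.8% cannot be set against that rate. The value was that of BMP2 replicate VI for 11 genes, of replicate IV for 5 and of replicate II for 1. In replicate VI the set-apart values were the highest of the group: Krt16 at 408, Lct at 151, Rdh7 at 24, Olfm4 at 549, Ccna2 at 220, Slc2a2 at 159, Slc26a3 at 74.7, Slc9a3 at 78.5, Galnt12 at 782, Aldh1a1 at 654 and Iqgap2 at 1340 normalized counts. Of these, Krt16 and Galnt12 were higher with BMP2 than with BMP4 and the other 9 lower, so that for these 9 replicate VI lay nearest to BMP4. In replicate IV they were Gvin1 at 23.5, Thbs1 at 17900 and Avil at 1840, the highest of their groups, and Fosl1 at 438 and Pgam1 at 3650, the lowest. In replicate II it was Zg16 at 2160, the highest. None of these genes overlapped between BMP2 and BMP4 with the set-apart sample included. All except Iqgap2 were named on that condition, so the lack of overlap is no separate result.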

How the results depend on the processing

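The number of genes that differ between BMP2 and BMP4 was 9847 and lay between 8649 and 10980 over the alternatives: 8649 with a minimum mean of 50, 8853 with the compared groups alone, 9849 by edgeR, 9879 by DESeq2 and 10980 without a filter. Leaving out 1 sample gave 9167 to 9743 genes, 945 to 1021 at least 4-fold higher and 1161 to 1258 at least 4-fold lower. Same-numbered samples of BMP2 and BMP4 deviated from their group means with correlations of 0.272 (II), -0.040 (III) and 0.298 (VI). Differently numbered pairs ran from -0.307 to 0.162. Whether the numbers mark pairs was not tested, and BMP4 has no replicate IV. With the replicate block 10710 genes differed. Under that block Col4a1 and Col4a2 were called lower with BMP2 (-0.62 and -0.53, limma adjusted p = 0.00661 and 0.0382). The count for BMP5 against BMP7 was 2 and small throughout: 0 with a pseudocount of 0.1 or a minimum mean of 50, 1 with equal totals or quantile normalization, 4 with a pseudocount of 5, without a filter or by edgeR, 6 with the replicate block, 23 by DESeq2, and 0 to 9 when 1 sample was left out. Of the 158 named genes, 154 kept sign and threshold under every alternative run for them, which was 17, or 16 for those of the 7 named genes that the minimum mean of 50 removed; the other 4 were Id1, Id2, Id3 and Nts. Id1 changed sign, to -0.0941, without BMP4 replicate III (limma adjusted p = 0.708), and lay between -0.0941 and 0.326 when 1 sample was left out, and Id3 passed the threshold with the compared groups alone (limma adjusted p = 0.0474). With a minimum mean of 50, which tests fewer genes, the villus tip median went from -0.32 to 0.56 and that of non-epithelial markers from 1.17 to -1.72. Leaving out 1 sample moved the fold of means by over 1.5 times for 21 of 156 called named genes, 10 of them through BMP2 replicate VI.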
